A study of Mus musculus with 17 samples.

Results

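The 10 genes described here encode the growth factor and receptor arms of blood vessel signalling: the ligands Vegfa, Vegfb, Vegfc and Pgf, the VEGF receptors Kdr, Flt1 and Flt4, the co-receptor Nrp1, and the angiopoietin pair of Tek and Angpt2. They were taken by symbol from a deposited table of 43629 mouse genes, and each symbol belonged to 1 identifier. The rule used no measured value, but it was set with earlier results of these data known. All 10 passed the filter on low counts and were among the 22671 genes tested.

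Total RNA was sequenced from cultured ID8, a cancer line derived from ovarian surface epithelium of the mouse, and from samples of mice that had been given these cells. Orthotopic tumours (n = 3) grew after injection into the bursa of the right ovary. Their spread gave ascites cells collected at a first tap (n = 3) and a second tap (n = 3), and solid tumours on the intestine (n = 3). Subcutaneous tumours (n = 2) are placed on the flanks by the protocol and on the scruff by the sample labels. The cultured line, a healthy ovary and a healthy intestine of C57BL6 mice gave 1 library each. Labels of the line and of both healthy tissues read wild type and untreated, and no added allele or drug is named for any group. The strain, sex and age of the injected mice, and which samples came from 1 animal, are not given in the sources used here, so p-values measure only the spread between these samples. Tumour and ascites samples can hold host cells beside ID8 cells, and the share of ID8 cells in each was not measured.

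VEGF-A is the main growth factor for blood vessels, and cells short of oxygen make more of it. It signals in endothelial cells mainly through VEGFR2, the product of Kdr, while VEGFR1 (Flt1) binds it tightly and can act as a decoy, and neuropilin-1 (Nrp1) presents it to VEGFR2. VEGF-C and its receptor VEGFR3 (Flt4) drive lymphatic vessels, and the angiopoietins steady or loosen vessels through the endothelial receptor Tie2 (Tek). In ovarian cancer VEGF-A is known for vessel leak and the build-up of ascites.

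Read totals ran from 12031221 to 38902048 per library. Levels are given as CPM, a gene's reads relative to all reads on tested genes, scaled by normalisation factors of 0.701 to 1.365. The line had 0 reads for 5 of 10 endothelial markers, but 37.0 CPM of Esam and 12.6 CPM of Ecscr, so those 2 markers are not specific here. Summed macrophage markers ran from 1439 to 9530 CPM in ascites against 280.3 to 449 CPM in orthotopic tumours. Tumours on the intestine held 2374 to 8434 CPM of 5 intestinal epithelial markers, healthy intestine 7594 CPM and orthotopic tumours 1.47 to 3.82 CPM, and tumour on the intestine 2 correlated at 0.960 with healthy intestine over genes. Subcutaneous tumour 2 held 1268 CPM of B cell and 2842 CPM of adipocyte markers, against 4.12 and 7.31 CPM in subcutaneous tumour 3. Granulosa markers summed to 248 to 457 CPM in orthotopic tumours, 1471 CPM in healthy ovary and 0.821 CPM in healthy intestine. First tap 1 and second tap 2 resembled each other (r = 0.980 over genes) more than either resembled the other libraries of its own tap, and both carry a library name that starts with S, as do the line, orthotopic tumour 1 and tumour on the intestine 1. The subcutaneous names start with SCT, so that name and that site cannot be told apart, and all other names start with SM.

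Kdr and Tek were the members that passed the test. Kdr was highest in orthotopic tumours and fell in ascites of both taps and in tumours on the intestine. Tek fell beside Kdr in the first tap, but stood in tumours on the intestine at 9.16 ± 1.84 CPM (SD, n = 3) against 5.95 ± 2.16 CPM (SD, n = 3) in orthotopic tumours. No ligand passed the test between any groups, and Vegfa varied up to 21.4-fold among libraries of 1 group. Flt4, Vegfa, Vegfb and Nrp1 were plainly read in the cultured line, which had no read of Kdr and 1 of Tek.

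**Figure D1:**
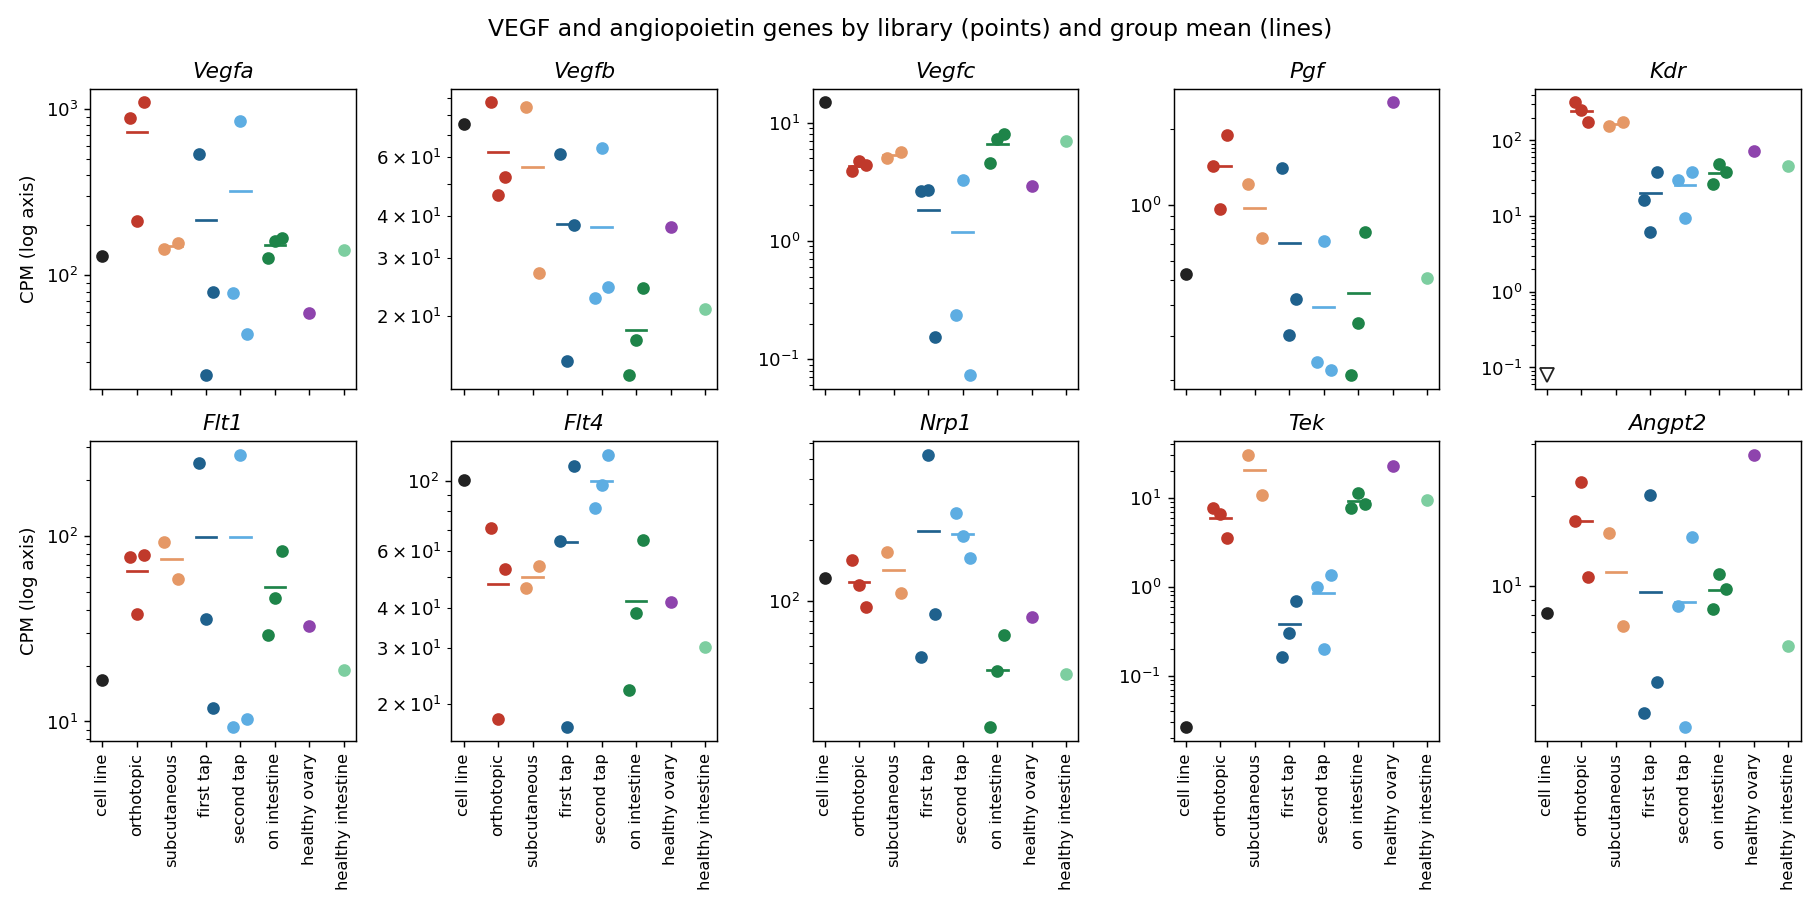
Level of each of the 10 genes in CPM on a log axis, 1 point per library and a line at the mean of each group with more than 1 library; the open triangle for Kdr in the cell line marks the floor of 3 reads, since no read was counted. Kdr and Tek stand low in every ascites library, while Vegfa and Flt1 spread widely within each tap.

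Vegfa, the main VEGF ligand (GRCm38 chr17:46016993-46032369, minus strand), stood at 880.2, 213 and 1097 CPM in orthotopic tumours 1 to 3. It stood at 538, 25.2 and 79.7 CPM in first tap 1 to 3 and at 78.1, 849 and 44.6 CPM in second tap 1 to 3. In each tap 1 library was thus within the orthotopic range and the others were below it, and those high libraries were first tap 1 and second tap 2, the pair with the like profile. The tumours on the intestine held 127, 159.95 and 169 CPM, subcutaneous tumours 144 and 156 CPM, the line 132 CPM, healthy intestine 141 CPM and healthy ovary 59.2 CPM. The intestine and subcutaneous libraries all lay below the lowest orthotopic tumour and close to the line. The log2 fold change over orthotopic tumours was -2.27 ± 1.17 (SE) for tumours on the intestine, with an adjusted p of 0.206 in edgeR's quasi-likelihood test, and -2.28 ± 1.37 (adjusted p = 0.341) for subcutaneous tumours. Neither passed. The intestine value passed (adjusted p = 0.0255) only when those 2 groups were fitted alone. Mean Vegfa ordered the groups as orthotopic tumours, second tap, first tap, tumours on the intestine, subcutaneous tumours, healthy intestine, line and healthy ovary, and the first 3 of these overlapped each other.

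A list of 10 genes known to respond to or carry the hypoxia response were summed beside Vegfa. Their sum was 1735 CPM in orthotopic tumour 1, 1824 CPM in orthotopic tumour 3, 1578 CPM in first tap 1 and 2061 CPM in second tap 2, the 4 libraries with the most Vegfa. Of these, 3 carry a name that starts with S. Orthotopic tumour 2, with less Vegfa, had 734 CPM, and the other ascites libraries had 478 to 830.0 CPM. Tumour on the intestine 1 departed from this, with 1621 CPM of hypoxia genes and 127 CPM of Vegfa. Genes with more reads weigh more in these sums. Ndrg1 alone gave 481 and 769 CPM in orthotopic tumours 1 and 3, 554 CPM in first tap 1 and 875 CPM in second tap 2. Over 17 libraries Vegfa followed Adm (adrenomedullin; Pearson r = 0.77), Ndrg1 (0.72), Egln3, the oxygen-sensing prolyl hydroxylase (0.64) and Bnip3 (0.63), but not Car9 (-0.05) or Hif1a itself (0.12). Slc2a1 (0.55) and Pgk1 (0.50) lay between, and Epas1 (0.28) and Ankrd37 (0.15) followed it weakly. These correlations are a description over libraries that share groups and name prefixes. Of the 10 hypoxia genes none passed by edgeR between orthotopic tumours and either tap, tumours on the intestine or subcutaneous tumours. In that order 1, 1, 0 and 1 of them had an unadjusted p under 0.05, beside 4291, 3689, 7175 and 4690 of all 22671 genes tested.

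**Figure D2:**
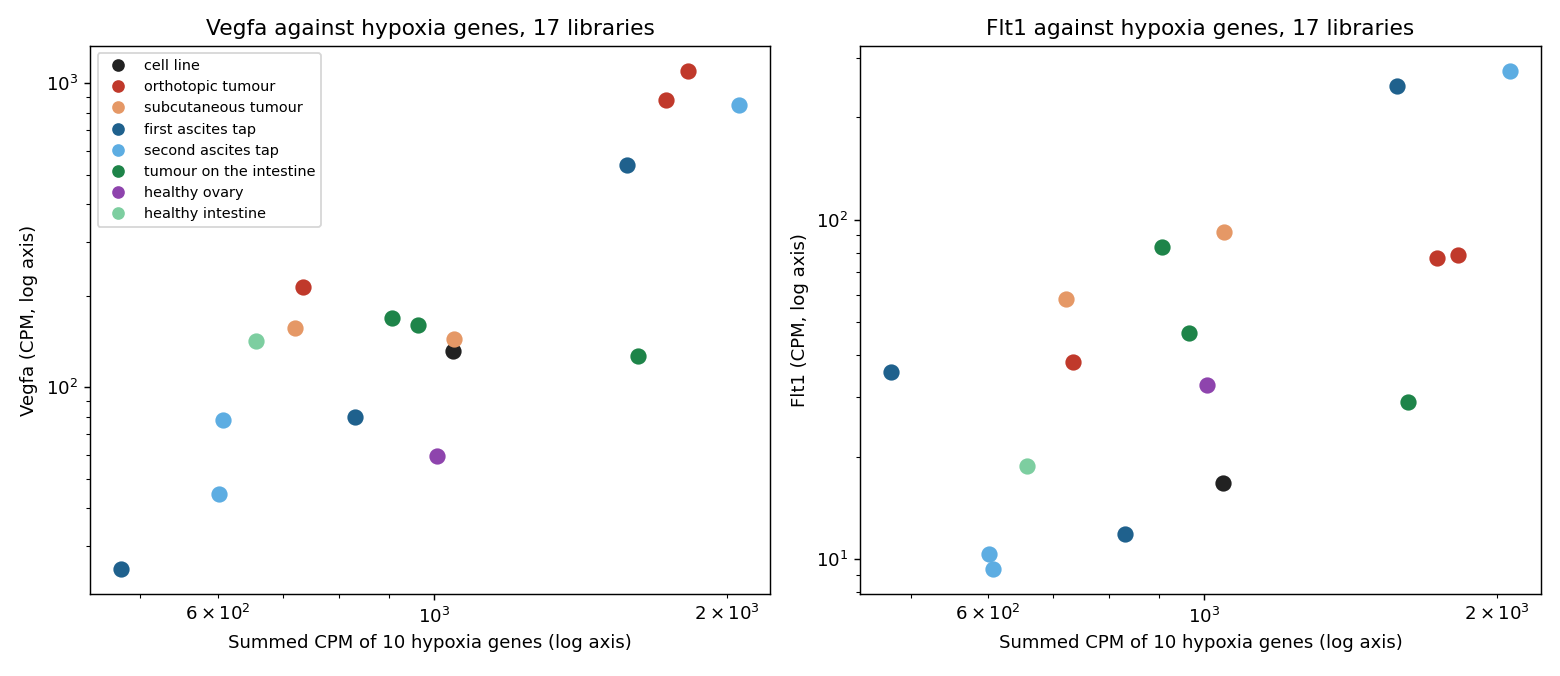
Vegfa (left) and Flt1 (right) against the summed CPM of 10 hypoxia genes, 1 point per library, both axes on a log scale. The 4 libraries with the most Vegfa have 1578 to 2061 CPM of hypoxia genes, and first tap 1 and second tap 2 also have the most Flt1.

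Vegfb, a ligand of VEGFR1 linked to fatty acid handling (GRCm38 chr19:6982473-6987651), had 87.5, 46.3 and 52.2 CPM in orthotopic tumours and 13.3, 16.98 and 24.4 CPM in tumours on the intestine, with no overlap. Its log2 fold change there was -1.76 ± 0.60 (adjusted p = 0.0677 by edgeR), just short of the threshold, and it passed with library size alone (adjusted p = 0.0375), with the 2 groups alone (0.013) and with DESeq2 (0.0178). Healthy intestine stood at 21.1 CPM, inside the range of the tumours on it. Ascites ran from 14.7 to 63.7 CPM, subcutaneous tumours had 85.0 and 26.9 CPM and the line had 75.2 CPM.

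Vegfc, the lymphatic ligand (GRCm38 chr8:54077606-54187096), was highest in the line, at 14.8 CPM. Orthotopic tumours held 3.92, 4.75 and 4.34 CPM, a narrow range, and all 6 ascites libraries lay below them. First tap 1 to 3 had 2.66, 2.68 and 0.153 CPM, and second tap 1 to 3 had 0.237, 3.26 and 0.0735 CPM. The lowest of these rests on 2 reads. The difference in the second tap, -1.85 ± 1.104 (adjusted p = 0.426), did not pass. Pgf, placental growth factor and among the VEGF receptors a ligand of VEGFR1 alone (GRCm38 chr12:85166635-85177790), stayed at or below 2.56 CPM in every library and was highest in healthy ovary. Per kilobase of exon, Vegfa made up 78.4%, 61.5% and 88.0% of the reads on these 4 ligands in orthotopic tumours, whereas in the line Vegfb made up 55.9%, Vegfa 36.6% and Vegfc 7.22%.

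Kdr encodes VEGFR2 (GRCm38 chr5:75932827-75978458, minus strand) and Tek encodes Tie2 (GRCm38 chr4:94739289-94874976, plus strand). Both were low in the same ascites libraries, so the 250 bases before their RefSeq start sites are shown, with those of Flt1 (GRCm38 chr5:147561604-147726011, minus strand), which did not follow them. Capitals mark GGAA and its complement TTCC, the core letters bound by ETS factors, which are known regulators of endothelial genes. The windows are GRCm38.p6 chr5:75978456-75978705 (minus strand), chr4:94739039-94739288 (plus strand) and chr5:147726012-147726261 (minus strand), each 5′ to 3′ along its gene.
Kdr: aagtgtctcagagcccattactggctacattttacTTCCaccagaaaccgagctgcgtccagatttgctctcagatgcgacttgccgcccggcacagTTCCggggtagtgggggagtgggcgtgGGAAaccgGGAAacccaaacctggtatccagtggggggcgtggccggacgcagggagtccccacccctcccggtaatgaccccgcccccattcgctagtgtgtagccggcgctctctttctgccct
Tek: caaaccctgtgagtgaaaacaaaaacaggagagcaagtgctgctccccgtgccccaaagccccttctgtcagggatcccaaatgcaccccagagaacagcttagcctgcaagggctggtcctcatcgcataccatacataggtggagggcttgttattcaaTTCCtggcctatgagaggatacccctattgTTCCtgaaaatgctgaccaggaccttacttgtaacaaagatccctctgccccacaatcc
Flt1: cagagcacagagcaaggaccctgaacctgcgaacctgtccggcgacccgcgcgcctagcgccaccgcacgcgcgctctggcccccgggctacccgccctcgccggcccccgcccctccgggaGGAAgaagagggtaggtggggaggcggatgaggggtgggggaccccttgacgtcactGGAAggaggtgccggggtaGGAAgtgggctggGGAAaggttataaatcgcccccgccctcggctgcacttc
The core occurred 4 times in the Kdr window, 2 times in the Tek window and 4 times in the Flt1 window, counted on both strands. It was in 93.4% of 32851 RefSeq windows of this length, with a median of 3, so its presence does not set these genes apart. The hypoxia-linked letters ACGTG were in 0 of these 3 windows and in 16.6% of all windows, and GCGTG occurred 2 times in the Kdr window, 1 time in that of Flt1 and in 28.2% of all windows. RefSeq windows were matched for 9 of the 10 members.

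Kdr had 318, 254 and 175 CPM in orthotopic tumours 1 to 3, which is 6647 to 12261 reads. First tap 1 to 3 held 16.1, 6.16 and 38.7 CPM, second tap 1 to 3 held 30.3, 9.49 and 38.3 CPM, and tumours on the intestine 1 to 3 held 26.2, 48.4 and 38.6 CPM. None of these 9 libraries reached the lowest orthotopic tumour. The line had no read among 38887321, which allows up to 0.0795 CPM from counting error alone. Subcutaneous tumours stood at 154 and 174 CPM, healthy ovary at 73.4 CPM and healthy intestine at 45.6 CPM. The order by mean was orthotopic tumours, subcutaneous tumours, healthy ovary, healthy intestine, tumours on the intestine, second tap, first tap and line. Orthotopic tumour 3 and subcutaneous tumour 3 lay within 1 CPM of each other, and the tumours on the intestine overlapped both taps and healthy intestine.

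Mean Kdr in the first tap, 20.3 ± 16.7 CPM (SD, n = 3), was 0.0816 times that of orthotopic tumours, 249 ± 71.8 CPM (SD, n = 3). The log2 fold change was -3.62 ± 0.66 (SE), with an adjusted p of 0.0309 in edgeR's quasi-likelihood test. Among libraries named S the ratio was 0.0507 (1 against 1), and among those named SM it was 0.105 (2 against 2). The call was lost without first tap 1 (adjusted p = 0.0616), first tap 2 (0.0795), orthotopic tumour 1 (0.103) or orthotopic tumour 2 (0.105), with library size alone (0.0515) and with those 2 groups fitted alone (0.0688). The log2 fold change ran from -4.48 to -3.29 over all 14 fits.

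The second tap is compared with the same orthotopic tumours. Mean Kdr there was 26.0 ± 14.9 CPM (SD, n = 3), a log2 fold change of -3.26 ± 0.65 (adjusted p = 0.0448 by edgeR). Within names the ratios were 0.0298 (S, 1 against 1) and 0.160 (SM, 2 against 2). This call was lost when any of the 6 libraries was left out: the adjusted p was 0.15, 0.137 and 0.0713 without orthotopic tumours 1 to 3, and 0.124, 0.105 and 0.115 without second tap 1 to 3. It was also lost with library size alone (0.066) and with the name prefix in the model (0.0542).

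In tumours on the intestine mean Kdr was 37.7 ± 11.1 CPM (SD, n = 3), 0.151 times that of orthotopic tumours, with a log2 fold change of -2.72 ± 0.64 (adjusted p = 0.0161 by edgeR). Within names the ratios were 0.0825 (S, 1 against 1) and 0.203 (SM, 2 against 2). The call was lost without orthotopic tumour 1 (adjusted p = 0.0549) or tumour on the intestine 1 (0.0628), the library with the fewest reads. It held without tumour on the intestine 2, the library most like healthy intestine (0.0493). Against healthy intestine, Kdr in these tumours differed by -0.27 ± 0.83 (adjusted p = 1), an SE that covers a wide range in both directions.

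Some markers of endothelium fell with Kdr in ascites, and none passed in tumours on the intestine. Of 10 endothelial markers 4 fell in the first tap and 4 in the second, among them Pecam1, Cdh5 (VE-cadherin), Emcn and Egfl7. In each tap 2 of the 10 had a positive log2 fold change. Of all genes tested 0.891% fell and 0.688% rose in the first tap, and 0.578% fell and 0.516% rose in the second. Median log2 fold changes of the 10 markers over orthotopic tumours were -3.37 and -3.58, against 0.18 and 0.13 for all genes tested. In ascites Cdh5 rested on 12 to 61 reads, and Cldn5, Emcn, Erg and Sox17 had 0 to 0.651 CPM. Of 6 pericyte markers 4 fell in each tap, Pdgfrb, Rgs5, Cspg4 and Notch3. In tumours on the intestine 0 of 10 endothelial markers passed (1 at an unadjusted p under 0.05), with a median of -0.32 against 0.06 for all genes. Of all 22671 genes tested there by edgeR, 5.13% fell and 10.4% rose, and 7175 had an unadjusted p under 0.05. All 10 markers together had 179 to 289 CPM in orthotopic tumours. Those on the intestine had 145 to 225 CPM of them, and ascites had 49.4 to 255 CPM, of which Esam was 15.6 to 228 CPM. Other cell type lists moved too. In each tap 5 of 8 macrophage markers rose, 1 of 4 lymphatic markers (Mmrn1) fell and 1 of 5 smooth muscle markers fell, and no mesothelial, granulosa, intestinal, adipocyte or B cell marker passed. In tumours on the intestine 5 of 5 intestinal epithelial, 5 of 5 smooth muscle and 1 of 4 B cell markers rose, 2 of 5 granulosa markers fell and no macrophage, pericyte, mesothelial, adipocyte or lymphatic marker passed. Their part in the Kdr values was not tested. In bulk RNA fewer cells of a type and less RNA per cell cannot be told apart.

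A ratio of Kdr to Cdh5 was taken after the values above were seen. Orthotopic tumours 1 to 3 had 6.93, 3.45 and 6.09 Kdr reads per Cdh5 read. Those on the intestine had 1.68, 1.65 and 0.997, healthy intestine 1.201 and healthy ovary 0.856, all below the lowest orthotopic tumour. The difference between both groups of 3 gave p = 0.1 in an exact two-sided permutation test, the smallest p that 3 against 3 allows, and an adjusted p of 0.4 over the 4 groups tested against orthotopic tumours. Subcutaneous tumours had 0.836 and 3.52 (exact permutation p = 0.4). First tap 1 to 3 had 32.7, 2.67 and 37.5, and second tap 1 to 3 had 27.7, 5.53 and 86.8. Of these 6 libraries 4 lay above the orthotopic range, second tap 2 within it and first tap 2 below it, and the exact permutation test gave p = 0.4 for the first tap and p = 0.3 for the second.

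**Figure D3:**
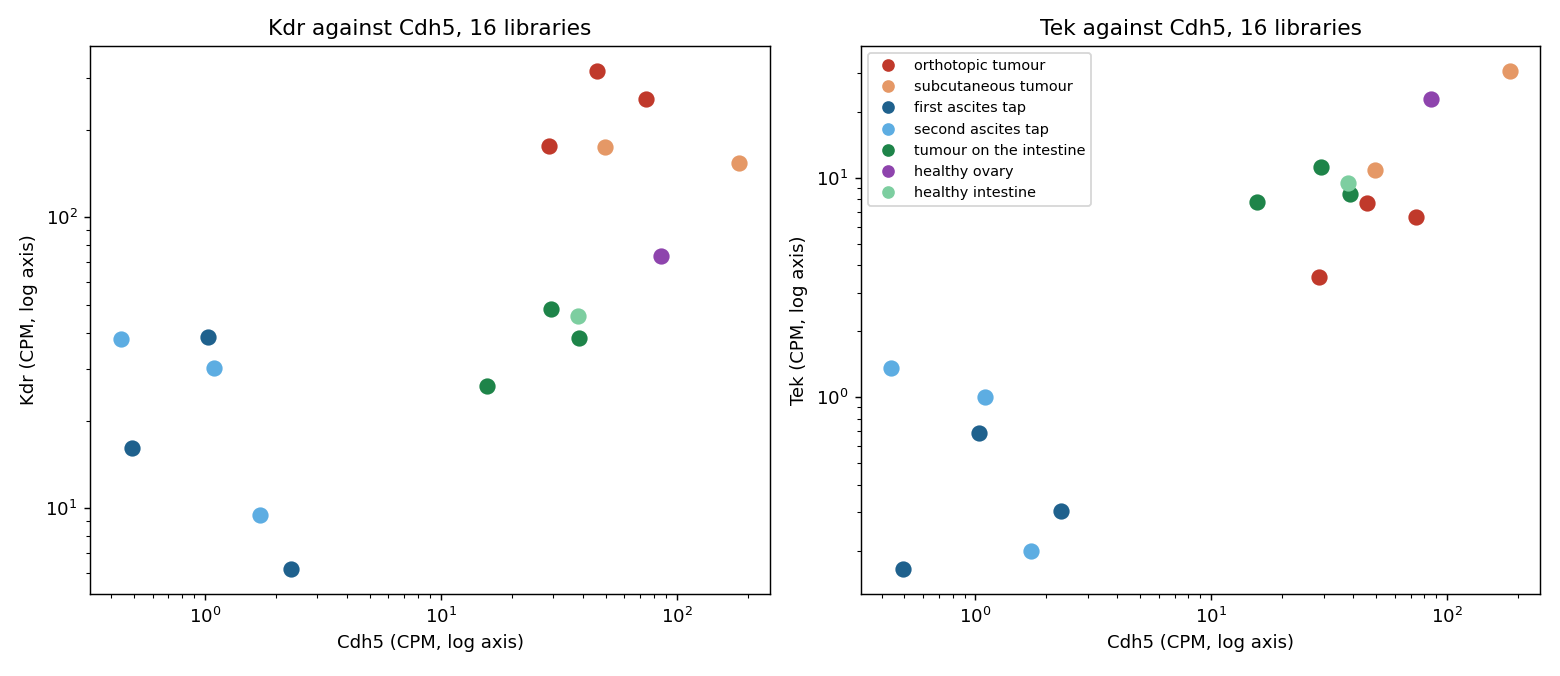
Kdr (left) and Tek (right) against the endothelial junction gene Cdh5 in CPM, both axes on a log scale, 1 point per library; the cell line, with no Cdh5 read, is left out. Every orthotopic tumour has more Kdr than any tumour on the intestine, with 28.7 to 73.8 CPM of Cdh5 against 15.6 to 38.7 CPM, and 4 of 6 ascites libraries have 16.1 to 38.7 CPM of Kdr at no more than 1.095 CPM of Cdh5.

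Flt1, the tight-binding receptor VEGFR1, was read in every library. Orthotopic tumours held 76.9, 38.0 and 78.4 CPM. First tap 1 to 3 held 247, 35.5 and 11.8 CPM, and second tap 1 to 3 held 9.33, 274 and 10.4 CPM. The 2 highest values of all 17 libraries were again first tap 1 and second tap 2, while 3 ascites libraries were below the line, at 16.8 CPM. Tumours on the intestine stood at 29.1, 46.3 and 82.8 CPM, subcutaneous tumours at 92.3 and 58.6 CPM, healthy ovary at 32.5 CPM and healthy intestine at 18.8 CPM. Flt1 passed in none of the comparisons. Its log2 fold change over orthotopic tumours ran from -1.45 to 1.13 in the first tap and from -2.71 to 1.14 in the second. It was positive in 12 of 14 fits in each tap, but those fits reuse the same libraries. Within names the first tap stood at 3.21 (S, 1 against 1) and 0.406 (SM, 2 against 2) times orthotopic tumours. For the second tap these ratios were 3.57 and 0.169, so the direction differed by name.

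Flt4, the VEGF-C receptor VEGFR3 (GRCm38 chr11:49609263-49652739), had 101 CPM in the line from 3799 reads. Second tap 1 to 3 held 82.1, 97.0 and 121 CPM, all above orthotopic tumours 1 to 3 at 71.1, 17.9 and 53.0 CPM. First tap 1 to 3 held 64.5, 16.9 and 111 CPM and overlapped them. The log2 fold change of the second tap was 1.08 ± 0.63 (adjusted p = 0.418) and did not pass. Those on the intestine had 22.2, 38.6 and 65.0 CPM, subcutaneous tumours 46.0 and 53.8 CPM, healthy ovary 41.6 CPM and healthy intestine 30.1 CPM. Of the 4 lymphatic markers, Pdpn (podoplanin) had 198 CPM in the line, Prox1 had 0.212 CPM and Lyve1 and Mmrn1 had no read. Adamts3, a protease of VEGF-C activation, was the gene most like Flt4 over 17 libraries (r = 0.86), and the correlations of Flt4 with mesothelial markers had a median of 0.65.

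The mix of the 3 VEGF receptors, per kilobase of exon, also differed by site. Orthotopic tumours 1 to 3 gave Kdr 71.1%, 84.9% and 61.3%, and subcutaneous tumours gave it 57.8% and 64.0%. Healthy ovary gave it 52.1% and healthy intestine 50.0%, against 37.5%, 39.7% and 23.4% for the tumours on the intestine. In the line Flt4 made up 90.8%, Flt1 9.22% and Kdr none. In ascites Flt4 led in first tap 3 (72.4%), second tap 1 (71.1%) and second tap 3 (74.5%), whereas Flt1 led in first tap 1 (65.5%), first tap 2 (49.0%) and second tap 2 (61.3%). No ascites library gave Kdr more than 23.9%. These shares use exon lengths of GRCm38, are given without a test, and move with any of the 3 genes.

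**Figure D4:**
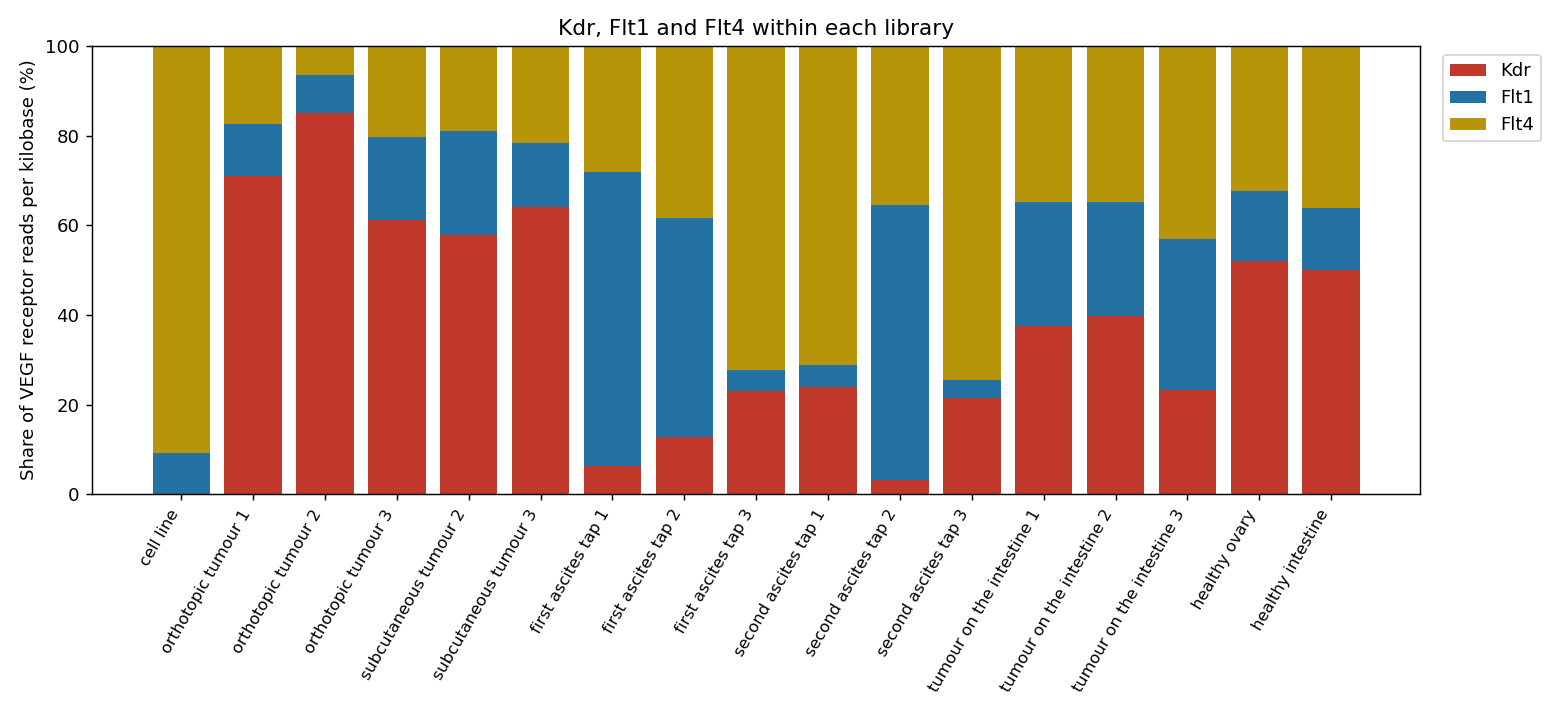
Share of reads per kilobase of exon that fell on Kdr, Flt1 and Flt4 in each of the 17 libraries, as stacked bars that add up to 100%. Kdr holds the largest share in all orthotopic and subcutaneous tumours and in both healthy tissues, Flt4 in the line, and Flt1 or Flt4 in every ascites library. On the intestine Kdr holds the largest share in tumours 1 and 2 (37.5% and 39.7%) and Flt4 in tumour 3 (43.1%).

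Nrp1, neuropilin-1 (GRCm38 chr8:128358604-128503363), had 159.9, 120.3 and 93.6 CPM in orthotopic tumours and 129.9 CPM in the line. Second tap 1 to 3 held 271, 210.2 and 164 CPM, all above the orthotopic tumours, and first tap 1 to 3 held 53.0, 525 and 87.1 CPM. First tap 2, the highest of all libraries, was also the one with 9530 CPM of macrophage markers. The part of macrophages in this value was not tested. The 3 tumours on the intestine held 24.1, 45.4 and 68.3 CPM, all below the orthotopic tumours and around healthy intestine at 44.2 CPM. Their log2 fold change over orthotopic tumours, -1.44 ± 0.71 (adjusted p = 0.184), passed only when those 2 groups were fitted alone (0.0378).

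Tek, the angiopoietin receptor, had 7.68, 6.65 and 3.53 CPM in orthotopic tumours. First tap 1 to 3 had 0.164, 0.302 and 0.688 CPM, which is 6 to 18 reads, and second tap 1 to 3 had 1.007, 0.200 and 1.36 CPM. The line had 1 read. Tumours on the intestine held 7.77, 11.2 and 8.47 CPM, all above the orthotopic tumours and around healthy intestine at 9.45 CPM. Healthy ovary held 22.9 CPM. Subcutaneous tumours held 30.7 and 10.8 CPM, again above the orthotopic tumours, and the higher of them was the library rich in B cell and adipocyte markers. The part of those cells was not tested.

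In the first tap mean Tek was 0.0647 times that of orthotopic tumours, a log2 fold change of -3.95 ± 0.76 (adjusted p = 0.0332 by edgeR). Within names the ratios were 0.0214 (S, 1 against 1) and 0.0974 (SM, 2 against 2). The call was lost without first tap 1 (adjusted p = 0.0637), first tap 2 (0.115), orthotopic tumour 1 (0.111) or orthotopic tumour 2 (0.109), with library size alone (0.0515) and with those 2 groups alone (0.067). In the second tap the log2 fold change of -2.80 ± 0.71 did not pass (adjusted p = 0.0803), though it did with DESeq2 (9.4e-04) and with those 2 groups alone (0.0476). In tumours on the intestine the difference of 0.62 ± 0.66 (adjusted p = 0.553) had the opposite sign to that of Kdr. Per Tek read, orthotopic tumours had 41.4, 38.3 and 49.6 Kdr reads, and those on the intestine had 3.38, 4.30 and 4.56. Healthy ovary had 3.20 and healthy intestine 4.83, and subcutaneous tumours had 5.01 and 16.1. The 6 ascites libraries had 20.4 to 98.2 and overlapped the orthotopic tumours. This ratio was chosen after its values were seen and was not tested.

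Angpt2, the angiopoietin that loosens vessels (GRCm38 chr8:18690263-18741562), was highest in healthy ovary at 27.6 CPM. Orthotopic tumours held 16.5, 22.3 and 10.7 CPM, and first tap 1 to 3 held 3.75, 20.2 and 4.78 CPM. All other libraries had 3.37 to 15.0 CPM, with 8.11 CPM in the line. Both taps, the tumours on the intestine and the subcutaneous tumours overlapped the orthotopic range, and none passed. Angpt1, the ligand that steadies vessels, had 0 to 0.344 CPM in ascites and no read in the line, 0.789 to 1.89 CPM in orthotopic tumours and 7.87 CPM in healthy ovary. Its highest level was in subcutaneous tumour 2, at 23.2 CPM, and subcutaneous tumour 3 had 6.18 CPM.

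Few genes of the wider pathway passed the test, and with 2 or 3 libraries a group this does not show that levels were alike. Of 8 other ligands, receptors and helpers (Vegfd, Angpt1, Angpt4, Tie1, Nrp2, Ptprb, Ccbe1 and Adamts3) none passed between orthotopic tumours and either tap, tumours on the intestine or subcutaneous tumours, by edgeR. At an unadjusted p under 0.05 there were 4 of 8 in the first tap, 3 in the second, 1 in tumours on the intestine and 1 in subcutaneous tumours. Of all 22671 genes tested 4291, 3689, 7175 and 4690 did so, in the same order. Tie1, the partner receptor of Tie2, ran from 7.32 to 13.6 CPM in the orthotopic group and from 0 to 0.880 CPM in ascites. Of 8 genes known to respond to VEGF in endothelium, Dll4, a Notch ligand of sprouting tips, fell in both taps. Its log2 fold changes were -4.91 ± 0.96 (adjusted p = 0.0344) and -4.71 ± 0.95 (adjusted p = 0.0448) by edgeR, and no other of the 8 passed. In each tap 6 of 8 had an unadjusted p under 0.05 and 2 of 8 had a positive log2 fold change. Medians over the 8 were -2.25 in the first tap and -2.48 in the second, against 0.18 and 0.13 over all genes. Esm1, a tip cell gene, had 6.08 to 16.02 CPM in the orthotopic group and 1.26 to 4.24 CPM on the intestine, with no overlap (adjusted p = 0.368). Apln, another, had 15.1 to 41.1 CPM in the orthotopic group and 1.05 to 7.38 CPM on the intestine, also with no overlap (adjusted p = 0.106). On the intestine 5 of the 8 genes had a positive log2 fold change and the median was 0.14, against 0.06 over all genes. Dll4 had 7.86 to 28.0 CPM there against 5.95 to 9.71 CPM in the orthotopic group, and Unc5b, a guidance receptor, had 137 to 361 CPM against 53.5 to 151 CPM, both with overlap. Healthy intestine had 25.6 CPM of Dll4, 152 of Unc5b, 1.95 of Esm1 and 1.64 of Apln, each within the range of the tumours on it. Unc5b stood at 511 CPM in the line, so it is not specific to endothelium here.

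The comparisons with orthotopic tumours share those 3 libraries, so their counts are not independent of each other. In the first tap 2 of 10 members fell and none rose, where 0.891% of all genes tested fell and 0.688% rose, 1.58% in all. In the second tap 1 fell and none rose, against 0.578% and 0.516% of all genes, 1.09% in all. In tumours on the intestine 1 fell and none rose, where 5.13% of all genes fell and 10.4% rose, 15.5% in all. Members below orthotopic tumours in every library numbered 3 in the first tap, where this held for 11.0% of all genes, 4 in the second (12.5%) and 5 in tumours on the intestine (20.5%). Members above them in every library numbered 0 in the first tap (13.6%), 2 in the second (18.8%, Flt4 and Nrp1) and 1 in tumours on the intestine (24.4%, Tek). Median log2 fold changes over the members were -0.89, -1.03 and -1.10, against 0.18, 0.13 and 0.06 over all genes tested.

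**Figure D5:**
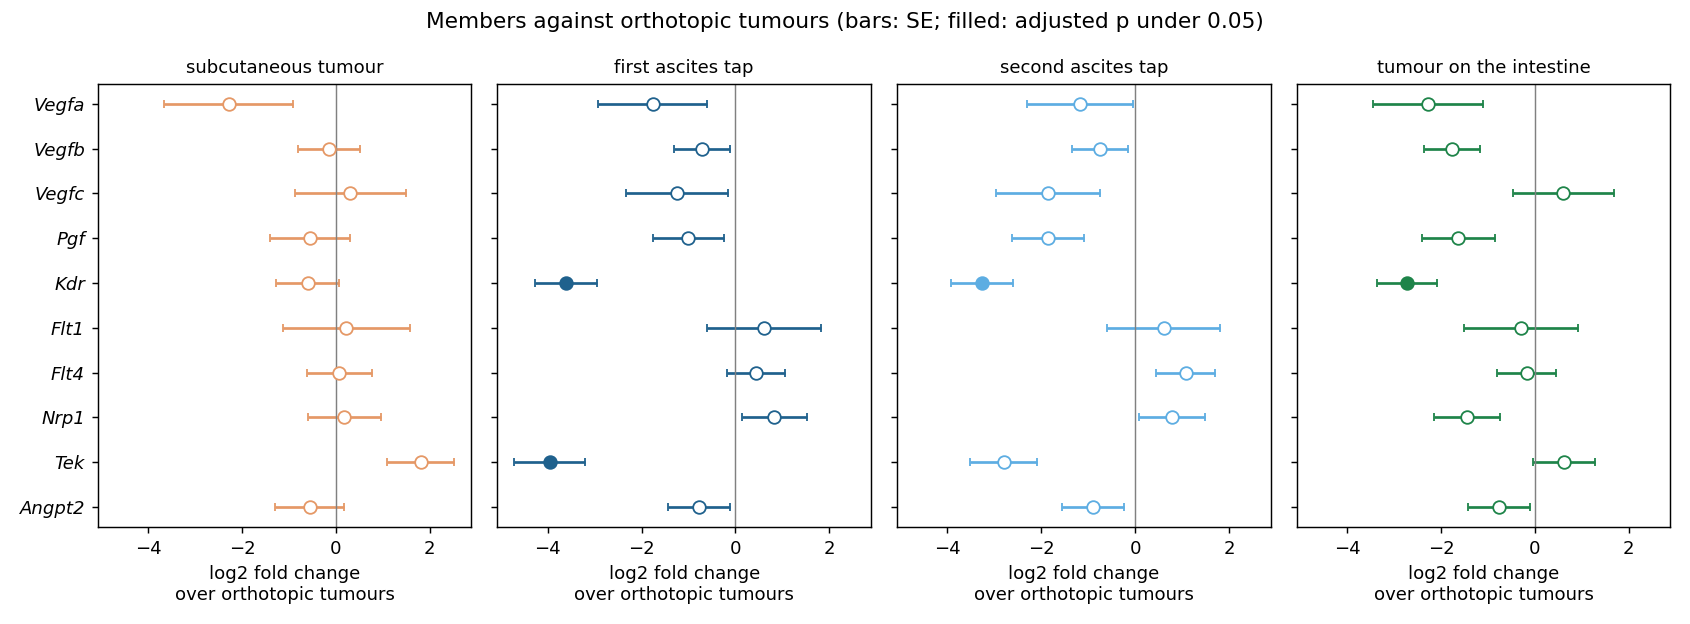
Log2 fold change of each of the 10 genes over orthotopic tumours in 4 groups, with its SE as a bar, from edgeR's quasi-likelihood fit of all 17 libraries; filled points have an adjusted p under 0.05. Kdr is filled in both taps and in tumours on the intestine, Tek in the first tap, and no gene in subcutaneous tumours.

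Subcutaneous and orthotopic tumours compare sites of injection. No member passed by edgeR, 0 of 10, where 0.0132% of all genes passed. DESeq2 also called 0 members, but far more of all genes than edgeR did, as given in the last section. At an unadjusted p under 0.05 there was 1 of 10, Tek, at 1.80 ± 0.72 (adjusted p = 0.194), beside 4690 of all 22671 genes. Kdr differed by -0.60 ± 0.68 (adjusted p = 0.616). Vegfa and Kdr lay below the orthotopic range in both libraries, which held for 18.1% of all genes, and Vegfc and Tek above it (23.0%). With 2 subcutaneous libraries of unlike makeup these intervals are wide. Between the second and first tap no member passed by edgeR or DESeq2, at an unadjusted p under 0.05 there was also none, and 0% of all genes passed by edgeR (145 at an unadjusted p under 0.05, and 1 by DESeq2). Every member overlapped between the taps, where 1.67% of all genes were higher and 1.25% lower in the second without overlap.

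Against the cultured line 2 of 10 members rose in orthotopic tumours and none fell, where 2.37% of all genes rose and 0.834% fell, 3.20% in all. Kdr was at least 3135-fold higher, with the line's 0 reads set to 3. Tek rose by 7.60 ± 1.60 on the log2 scale (adjusted p = 0.0284 by edgeR) from 1 read, and this call was lost without orthotopic tumour 1 (0.0575) or orthotopic tumour 2 (0.0543). Among related genes, Ccbe1, a helper of VEGF-C activation, was at least 370.4-fold higher, Notch4 rose by 4.74 ± 1.05 (adjusted p = 0.0343) and Epas1, which encodes HIF-2 alpha, by 4.41 ± 0.95 (adjusted p = 0.0321). In the first tap 1 of 10 members, Kdr, was higher than in the line, at least 256-fold, where 3.11% of all genes rose and 1.11% fell, 4.22% in all. Tek there had an adjusted p of 0.176. The line is 1 library and has no replicate check, as is true of both healthy tissues.

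Between orthotopic tumours and healthy ovary no member passed by edgeR, 0 of 10, where 0.600% of all genes passed (0.00882% higher and 0.591% lower). DESeq2 also called 0 members, but more of all genes than edgeR did, as given in the last section. Against 1 library this does not show that levels were alike. Among members only Tek had an unadjusted p under 0.05, at -1.94 ± 0.85 (adjusted p = 0.424), beside 2541 of all 22671 genes. Vegfa, at 12.3 times the ovary, and Kdr, at 3.39 times, lay above it in all 3 tumours but had adjusted p-values of 0.54 and 0.524. Between tumours on the intestine and healthy intestine, also 1 library, no member passed by edgeR or DESeq2, and none had an unadjusted p under 0.05. Of all genes 0% passed by edgeR (584 at an unadjusted p under 0.05, and 45 by DESeq2).

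The genes with the most similar levels over 17 libraries, searched among 17520, differed between members. Kdr was most like Ltbp2 (r = 0.97), Prelp (0.96) and Pde1a (0.92). Tek was most like Dpt, Tie1 and Shank3 (each 0.97), and its correlation with 10 endothelial markers had a median of 0.92 against 0.70 for Kdr. Over these markers Tek ran from -0.56 to 0.94. Its medians with pericyte (0.88), adipocyte (0.83) and smooth muscle markers (0.78) were also high, so this is not particular to endothelium. Vegfa was most like Zhx2 (0.89), Vldlr (0.87) and Sptbn1 (0.85), and Flt1 like Lrch1, Ezh1 (both 0.82) and Vldlr (0.81). Nrp1 was most like Nin, Mtr and Wdr91 (0.91 to 0.94), and Flt4, after Adamts3, like Enpp4 (0.85) and Efna5 (0.84). Vegfb was most like Pla2g12a, Mterf1a and Smim10l1 (0.91 to 0.92), Vegfc like Hspb6, Grem1 and Lsm12 (0.79 to 0.80), Pgf like Rpl22, Tmem88 and Enkur (0.83 to 0.85) and Angpt2 like Polb, Polr3b and Chsy1 (0.79 to 0.83). Among the members themselves Vegfa and Flt1 (0.71), Kdr and Tek (0.70) and Vegfb and Pgf (0.62) were most alike. Libraries of 1 group and 1 name prefix share their source in all of these values.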

How the data were processed

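Libraries were directional, from total RNA taken up in Trizol, and used a NEBNext Ultra II protocol with changes, per the labels' protocols. The authors deposited whole-number read counts per gene. The submitters' processing notes name HISAT, HISAT2, featureCounts and DESeq2 and the builds hg19 and mm39, and versions and strand setting are not given in the sources used here. Gene positions and exon lengths are from a GRCm38 annotation, matched by identifier, and serve as annotation only. The table had 43629 genes, 39055 with a count, and 42462 matched a symbol. A further 1 column matched no sample and was not used.

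Counts were tested in R 4.3.3 with edgeR 4.0.16. Genes above 0.5 CPM in at least 2 libraries (22671) were scaled by TMM and fitted in 1 quasi-likelihood model of 8 groups and 17 libraries with 9 residual degrees of freedom. Adjusted p-values are Benjamini and Hochberg's over all genes tested, with a threshold of 0.05. A fold against 0 reads is a lower bound from 3 reads over the group. Bounds cover counting error only, since reads carry no molecular identifiers. The SE of a log2 fold change is its size over the root of F. A correlation used log2(CPM + 1). The test was run on simulated counts of the first tap against orthotopic tumours, with large changes only. That run does not cover smaller changes or the single libraries.

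The labels' replicate numbers are shared between groups, but deviations of same-numbered libraries correlated from -0.549 to 0.163 and no comparison had every pair above 0.1, so numbers were not taken as pairs. Comparisons with 1 library assume that it varies like the replicated groups. Alternatives were other scaling, DESeq2 1.42.0, no filter, the name prefix, a replicate block, the 2 groups alone and each library left out.

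The 10 members, the gene lists and the tests were chosen with earlier results of these data known. Named beside the members are list genes that passed, at most 4 a comparison by smallest p, others chosen after their values were seen (Angpt1, Tie1, Esm1, Apln, Esam, Ecscr, Prox1, Lyve1 and the hypoxia genes), and the 3 genes most like each member over the libraries. Pathway, VEGF response, hypoxia, endothelial, lymphatic, pericyte, macrophage, mesothelial, intestinal, granulosa, smooth muscle, adipocyte and B cell lists were used.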

Additional observations from a re-analysis of the deposited data

How the results depend on the processing

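Leaving out single libraries aside, 55 alternative log2 fold changes of members with a call in some fit stayed on their side of the threshold, 9 lost the call, 7 gained it and none turned. The count of members called in the first tap was 2 and became 0 with library size alone, with the replicate block and with the 2 groups alone, and 0 to 2 without 1 library. In the second tap it was 1 and became 0 with library size alone, the prefix or the block, 2 with DESeq2 or the 2 groups alone, and 0 without any 1 library. In tumours on the intestine it was 1, or 2 with library size alone or DESeq2, 4 with the 2 groups alone, and 0 to 1 without 1 library. Against the line it was 2 in orthotopic tumours, or 1 to 2 without 1 library.

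Genes called against orthotopic tumours numbered 3 for subcutaneous tumours, 358 for the first tap, 248 for the second and 3517 for tumours on the intestine. Library size alone gave 6, 83 and 17 for the first 3 of these, DESeq2 gave 2300, 2591, 2021 and 5983, and the replicate block gave 15, 26 and 16 for the first 3. The 2 groups alone gave 0, 122 and 1671 for the first 3. The subcutaneous count was 140 with no filter, and the second tap count was 160 with RLE factors and 114 with the prefix. Leaving out 1 library gave 0 to 972 (972 without subcutaneous tumour 3), 18 to 925 (18 without orthotopic tumour 1, 925 without first tap 3), 1 to 30 (1 without second tap 1) and 1205 to 4081 (1205 without orthotopic tumour 2). Between taps DESeq2 called 1 gene, and tumours on the intestine against healthy intestine 45. Orthotopic tumours against the line gave 726 genes, 460 with library size alone, 3809 with DESeq2 and 308 to 412 without 1 library. The first tap against the line gave 957, or 3749 with DESeq2. Orthotopic tumours against healthy ovary gave 136, or 780 with DESeq2, 79 with the prefix and 3 to 19 without 1 library. The cause of these shifts was not tested.

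Higher and lower calls split 156 to 202 in the first tap (19 to 64 with library size alone), 117 to 131 in the second (2 to 15, and 56 to 104 with RLE factors), 2354 to 1163 in tumours on the intestine (1687 to 1401), and, against the line, 537 to 189 in orthotopic tumours (399 to 61) and 706 to 251 in the first tap (589 to 97). Library size alone moved the median of all genes from 0.06 to -0.23 in tumours on the intestine and from 0.24 to 0.38 in orthotopic tumours against the line. The replicate numbers did not pair the libraries, and under the block Kdr had an adjusted p of 0.0563 in the first tap, 0.0627 in the second and 0.0213 in tumours on the intestine, and Tek 0.0726 in the first tap. Tek in ascites, Pgf throughout and Vegfc in 3 ascites libraries rest on few reads.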
